A study of Mus musculus with 32 samples.

Results

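Normal stromal cells of mouse hind limb muscle were compared here: fibro-adipogenic progenitors (FAPs), sorted as PDGFRa+ cells, and endothelial cells, sorted as CD31+ cells. The members are the sorted libraries labelled WT, 3 FAP libraries (group PDGWT) and 3 endothelial libraries (group CD31WT), which make 6 of the 32 libraries of the series. The series is a bulk RNA-seq study of mice with an inducible DUX4 gene, the gene whose misexpression in muscle underlies facioscapulohumeral muscular dystrophy. It holds whole-muscle libraries and sorted-cell libraries, with DUX4 and WT groups of each. Both groups compared here carry WT in the label for the inducible gene, and the protocols name doxycycline chow, the inducing agent, for all samples, so that both share it. The strain is not given in the sources used here. For each sorted sample 75000 cells were collected by flow cytometry, and RNA was amplified with a low-input cDNA kit and read as paired 50-base ends. The sorted DUX4 groups, 4 FAP libraries (PDGDUX) and 4 endothelial libraries (CD31DUX), entered the fit to share its estimate of the spread and are used at the end. The sources used here do not give the age or sex of the sorted animals, the weeks on chow at the sort, or whether separate animals gave the libraries. The p-values therefore measure only the spread between libraries, which may be technical. Replicate numbers follow the order of the sample records and pair no FAP library with an endothelial library.

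FAPs are mesenchymal cells of the space between muscle fibres that make much of its connective tissue matrix, send growth factors to muscle stem cells, and can become fat cells or matrix-depositing fibroblasts in diseased muscle. Endothelial cells line the capillaries, arterioles, venules and lymphatics of muscle, and capillary endothelium there takes up fatty acids for the working fibres. The cells meet at the capillary wall, where ligands from one side act on receptors of the other in both directions, as with platelet-derived growth factor, vascular endothelial growth factor and angiopoietin.

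Depth was even. The FAP libraries held 18464457, 16551480 and 18938910 estimated counts and the endothelial libraries 17234329, 15887249 and 15151722. Levels are given as CPM, the counts per 1000000 counts of a library, with each library's total scaled by edgeR's TMM factor, in the order of replicates 1, 2 and 3. On that scale 3 counts correspond to between 0.156 and 0.203 CPM. Of 43035 genes, 17008 had enough counts to be tested. Differences are log2 of FAP over endothelial level with a standard error, so that positive values are higher in FAPs, and a gene is called where its adjusted p, from edgeR's quasi-likelihood test over all genes tested, is under 0.05. Log2 CPM values correlated at 0.94 to 0.95 among the FAP libraries, at 0.90 to 0.92 among the endothelial libraries and at 0.80 to 0.83 between the groups (Pearson, across genes, which are not independent replicates).

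The defining genes of each cell type were found where the sort labels put them. Pdgfra, the receptor used for the FAP sort (chromosome 5, 75152292 to 75198215 on GRCm38), stood at 993, 932 and 839 CPM in FAPs and 68.7, 39.2 and 29.96 CPM in endothelial cells (log2 4.32 ± 0.29, adjusted p = 1.3e-08). Dcn, which encodes the collagen-binding proteoglycan decorin (chromosome 10, 97479609 to 97518143), stood at 28162, 27395 and 22477 CPM against 2362, 1557 and 2044 CPM (log2 3.71 ± 0.17, adjusted p = 3.0e-10). For both genes every FAP library lay far above every endothelial library. Pecam1, which encodes CD31 itself (chromosome 11, 106654217 to 106750628), stood at 33.3, 37.3 and 63.7 CPM in FAPs and 1176, 1404 and 1148 CPM in endothelial cells (log2 −4.79 ± 0.23, adjusted p = 3.9e-10). Cdh5, the cadherin of endothelial junctions (chromosome 8, 104101625 to 104144511), stood at 5.32, 10.4 and 11.7 CPM against 321, 319.5 and 313 CPM (log2 −5.12 ± 0.30, adjusted p = 2.7e-09). Both endothelial genes were low in all 3 FAP libraries and highest among these in replicate 3. The sorts used the proteins of Pdgfra and Pecam1, so these genes check the sort and are no finding.

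The gene lists used here were chosen with earlier results of these data known, so their counts are descriptions and no independent support. The FAP identity list includes Pdgfra and the core endothelial list Pecam1. All 20 genes of the FAP identity list were called higher in FAPs, with a median log2 difference of 3.54. Of 24 core endothelial genes 23 were called higher in endothelial cells, with a median of −5.12. Over all genes tested the median was −0.02, with 16.7% called higher in FAPs and 14.5% called higher in endothelial cells. These shares are to be set beside each list count below. The exception was Clec14a, an endothelial surface lectin, at 51.3, 64.7 and 36.5 CPM in FAPs and 65, 50.4 and 32.98 CPM in endothelial cells (log2 0.04 ± 0.31, adjusted p = 0.95), with overlapping libraries. Among the smallest called differences of these lists were those of the angiopoietin receptor gene Tek, at 149.8, 186 and 103 CPM in FAPs against 356, 338 and 302 CPM (log2 −1.18 ± 0.24, adjusted p = 0.0012), and of the quiescent-mesenchyme factor gene Hic1, at 57.6, 70.2 and 47.2 CPM against 24.7, 25.01 and 31.6 CPM (log2 1.11 ± 0.26, adjusted p = 0.004). Their groups did not overlap.

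**Figure D1:**
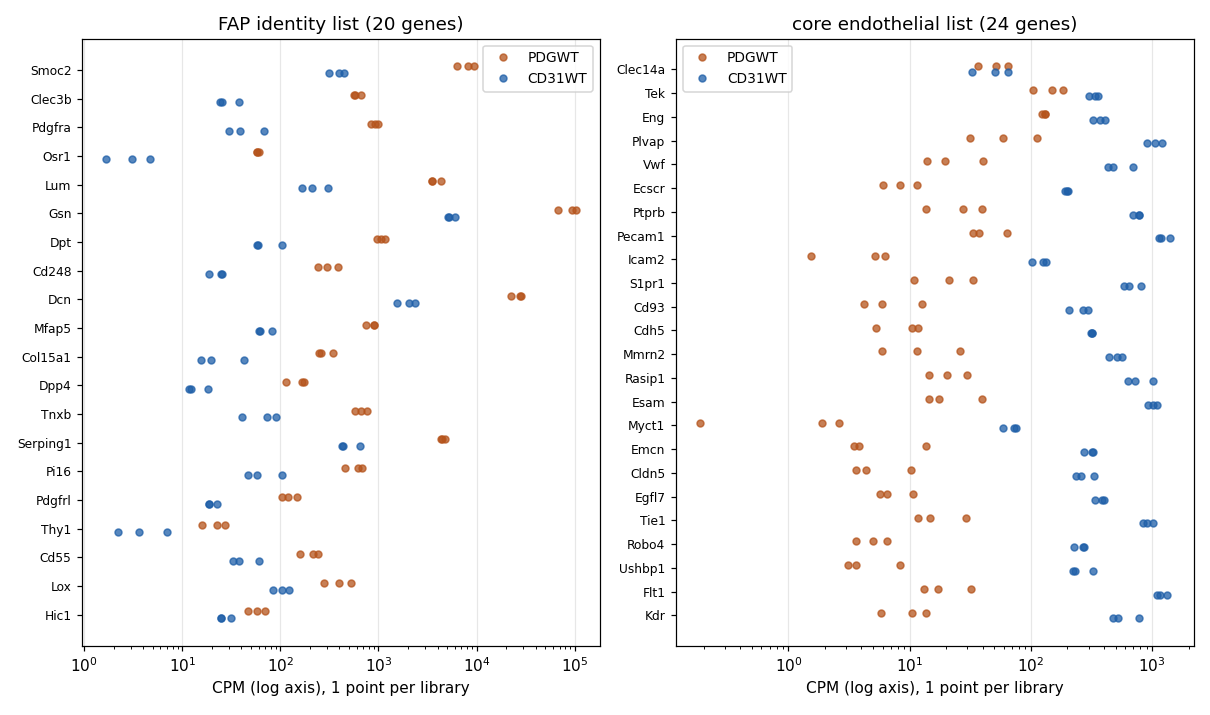
CPM on a log axis of FAP identity genes and core endothelial genes, one point per library, FAP and endothelial libraries in 2 colours. FAP genes lie higher in all 3 FAP libraries and endothelial genes in all 3 endothelial libraries, apart from Clec14a, whose points overlap.

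Neither population was at 0 for the other's genes. The FAP identity genes stood in the endothelial libraries at a median of 8.59% of their FAP level, from 4.85% for Smoc2 to 46.4% for Hic1. By endothelial library the median was 10.9%, 7.60% and 7.57%. The core endothelial genes stood in the FAP libraries at a median of 2.87% of their endothelial level, from 1.68% for Kdr to 103% for Clec14a. Of these 24 genes 20 stood under 5%. By FAP library the median was 1.70%, 2.29% and 4.67%. In bulk libraries, fewer cells of a type and less RNA per cell cannot be told apart, and how far cells of the other population contribute to these levels was not tested.

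Marker lists of other cell types gave a wider picture of what the gates held. Pericyte and smooth muscle genes were higher in the endothelial libraries, where 11 of 14 were called, and their summed level was 1714, 2118 and 1975 CPM against 557, 564 and 599 CPM in FAPs. The pericyte regulator Rgs5 stood at 367, 569 and 485 CPM in endothelial cells and 23.6, 7.92 and 24.96 CPM in FAPs. Pdgfrb and Cspg4, which FAPs also express, went the other way, and Cspg4 lost its call without CD31WT replicate 2 (adjusted p = 0.090) or PDGWT replicate 2 (0.14). Haemoglobin and other red cell genes summed to 30233, 17216 and 25189 CPM in endothelial libraries and 1924, 3177 and 12984 CPM in FAP libraries. None of the 6 was called by edgeR, with 2 at an unadjusted p under 0.05, while DESeq2 called none, limma's voom test called 1, and edgeR without PDGWT replicate 3 called 4. Macrophage genes summed to 944, 153 and 202 CPM in endothelial libraries and 51.7, 21.3 and 199 CPM in FAP libraries, so CD31WT replicate 1 and PDGWT replicate 3 stood above the others of their group. Of 13 macrophage genes 1, Cd14, was called, with none called without CD31WT replicate 1 or without PDGWT replicate 1, 3 without CD31WT replicate 2 or 3, and 6 without PDGWT replicate 3. Satellite cell genes were called higher in endothelial libraries for 4 of 6 genes, among them the myogenic factor gene Myod1 at 67.8, 105 and 76.1 CPM against 3.15, 3.93 and 6.71 CPM. Muscle fibre genes were called higher there for 7 of 10 and Schwann cell genes for 5 of 8, with 1 Schwann gene, Ngfr, higher in FAPs. Of the fat cell genes, Plin1 had no count in any library and Lep had counts in 1 library only. The part these cells play in the differences below was not tested. 

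**Figure D2:**
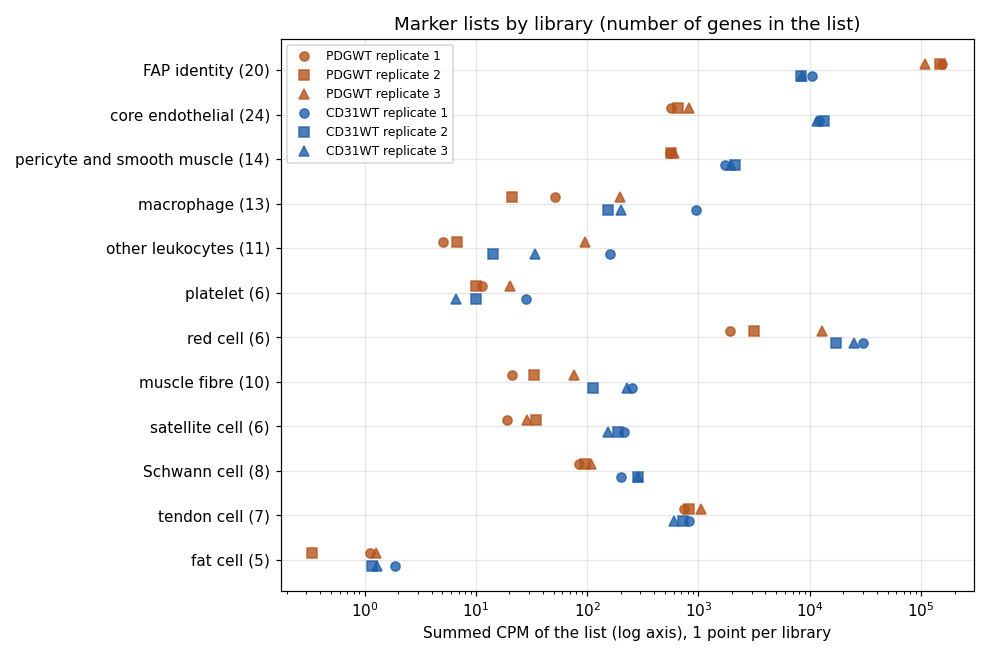
Summed CPM of marker lists of other cell types in each library on a log axis. Pericyte and smooth muscle sums lie higher in the 3 endothelial libraries than in the 3 FAP libraries, while macrophage sums are highest in CD31WT replicate 1.

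The populations differed over a large part of the transcriptome. Of 17008 genes tested 5295 were called (31.1%), 2836 higher in FAPs (16.7%) and 2459 higher in endothelial cells (14.5%). The libraries of the groups did not overlap for 7592 genes (44.6%). Without CD31WT replicate 1 and PDGWT replicate 3 together, a choice made after their macrophage and endothelial gene levels were seen, 4493 genes were called. A log2 difference of at least 1 was called for 1969 genes on the FAP side and 1844 on the endothelial side. The largest differences lay on the endothelial side: a called log2 difference of at least 5 was found for 374 genes (2.2%), of which 264 were higher in endothelial cells (1.55%) and 110 higher in FAPs (0.647%). Requiring in addition 50 CPM or more on the higher side left 71 endothelial genes and 2 FAP genes. The FAP count of 110 rested partly on weakly expressed genes and on single libraries: it was 182 without CD31WT replicate 2, 63 when only the 6 WT libraries were fitted and 26 with a stricter filter on low counts. The endothelial count of 264 lay between 226 and 368 in fits without 1 library. How far the levels of FAP genes in the endothelial libraries, given above, shape this imbalance was not tested.

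**Figure D3:**
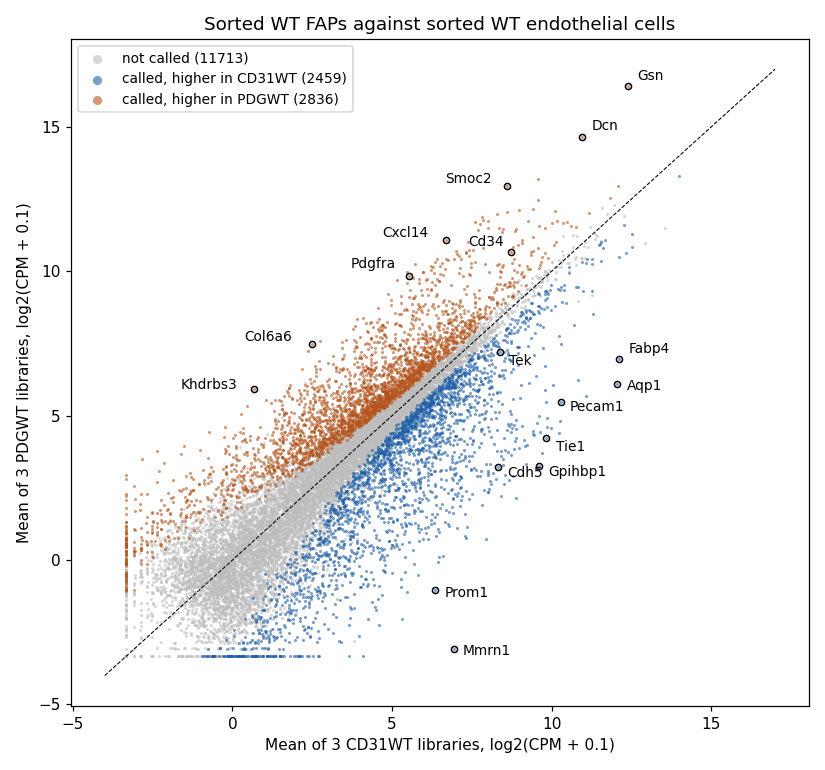
Mean CPM in FAP libraries against mean CPM in endothelial libraries for each gene tested, on log axes with 0.1 added, with called genes coloured by the population in which they are higher. Gsn and Dcn lie at the upper end on the FAP side, and Aqp1 and Fabp4 lie far from the diagonal on the endothelial side.

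Among well expressed genes (at least 50 CPM), the largest difference on the FAP side was that of Khdrbs3, an RNA-binding protein of the STAR family, at 60.1, 60.5 and 60.5 CPM in FAPs and 1.25, 2.97 and 0.295 CPM in endothelial cells (log2 5.32 ± 0.47, adjusted p = 2.8e-07). Col6a6, a chain of the microfibrillar collagen VI, stood at 187, 189 and 160.0 CPM against 8.40, 3.81 and 4.26 CPM (log2 5.02 ± 0.36, adjusted p = 3.6e-08). Has2, a hyaluronan synthase, stood at 213, 228 and 131 CPM against 7.73, 5.99 and 6.15 CPM (log2 4.84 ± 0.21, adjusted p = 1.7e-10). All 3 FAP libraries exceeded all endothelial libraries for each of these genes. The lipid transporter gene Abca6 lay between the last 2 at log2 4.90. Next came the olfactomedin-domain protein gene Myoc at 4.54, the soluble pattern-recognition gene Ptx3 at 4.53 and the interferon-inducible gene Ifi205 at 4.51. The rest of the 15 were the sorting receptor gene Sorcs2 (4.47), the activin and myostatin antagonist Fst (4.45), the chemokine Cxcl14 (4.38), the matricellular gene Smoc2 (4.36), tetranectin Clec3b (4.36), Pdgfra, the membrane protease neprilysin Mme (4.28) and the retinoic acid synthesis gene Aldh1a2 (4.27).

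The endothelial genes with the largest differences included lymphatic and capillary genes. Mmrn1, a secreted protein of lymphatic endothelium, stood at 122, 161 and 82.3 CPM in endothelial cells and had 1 count in the 3 FAP libraries together. Its ratio of 6634 had a 95% counting interval of 1191 to 262034 (adjusted p = 1.2e-10), and this interval covers counting error only. Prom1, a membrane glycoprotein, stood at 66.7, 90.5 and 89 CPM against 0.556, 0.339 and 0.275 CPM (log2 −7.70 ± 0.44, adjusted p = 2.0e-09). Ccl21a, the lymphatic chemokine, stood at 537, 518 and 368 CPM against 1.36, 2.51 and 9.02 CPM (log2 −6.76 ± 0.85, adjusted p = 6.7e-05), but it has near-identical gene copies, so its count is uncertain. The rest of the 15 were the potassium channel gene Kcna5 (log2 −6.66), the lymphatic growth factor receptor gene Flt4 (−6.61), Slc26a10 (−6.61), the butyrophilin-like gene Btnl9 (−6.60), the membrane repair gene Dysf (−6.53) and the transcription factor gene Sox18 (−6.51). They also held the lipase anchor Gpihbp1 (−6.38), Gvin1 (−6.26, a family with similar copies, so uncertain), Depp1 (−6.20), the protease inhibitor Timp4 (−6.01), the water channel Aqp1 (−5.97) and Ccm2l (−5.97).

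By level per kilobase of exon, Gsn was the most abundant transcript of the FAP libraries among tested protein-coding genes, with mitochondrially encoded genes left out. Gsn encodes the actin-severing protein gelsolin, which is also secreted into plasma. It took up 9.03%, 8.44% and 6.44% of all FAP counts and 0.668%, 0.594% and 0.566% of endothelial counts, or 103107, 94543 and 67064 against 5969, 5277 and 5071 CPM (log2 4.02 ± 0.17, adjusted p = 1.5e-10). Its mean FAP level was 27950.0 CPM per kilobase, against 4455 for Dcn, the next. On the endothelial side, haemoglobin transcripts led the same ranking. Among called endothelial genes with a log2 difference of at least 5 the highest per kilobase were Aqp1 at 1623, Fabp4 at 991, Cd36 at 602, Rbp7 at 564 and Ccl21a at 545 CPM per kilobase. The FAP genes of that size were far weaker, led by Col6a6 at 19.5 and Khdrbs3 at 16.5 CPM per kilobase, followed by the B cell chemokine Cxcl13, Frmd7 and Qprt.

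Promoter sequences were set beside the endothelial genes because transcription factors of the ETS family, such as Erg and Fli1, are known regulators of endothelial genes and were among the genes called. Shown are the 250 bases upstream of the first listed start of 5 genes, from the RefSeq table for GRCm38.p6, 5′ to 3′ on the gene's strand, in lower case with capitals for AGGAAG on that strand or its reverse complement CTTCCT, letters of an ETS core with its flank. The 3 endothelial genes are the growth factor receptor Flt1 (minus strand, chr5:147726012-147726261), the secreted regulator of vessel assembly Egfl7 (plus strand, chr2:26580833-26581082) and the receptor Tie1 (minus strand, chr4:118489850-118490099). The FAP genes are Gsn (plus strand, chr2:35256109-35256358) and Pdgfra (plus strand, chr5:75152001-75152250). They were chosen after the matches were known. RefSeq lists several starts for some genes, and these cells may use another one. As GENCODE draws the genes, the Egfl7 window lies inside Egfl7 and most of the Tie1 window lies inside Tie1.
Flt1: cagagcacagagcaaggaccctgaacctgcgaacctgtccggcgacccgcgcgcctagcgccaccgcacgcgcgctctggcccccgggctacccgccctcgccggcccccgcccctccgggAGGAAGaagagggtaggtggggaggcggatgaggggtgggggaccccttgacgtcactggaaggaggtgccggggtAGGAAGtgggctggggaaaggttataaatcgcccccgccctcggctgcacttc
Egfl7: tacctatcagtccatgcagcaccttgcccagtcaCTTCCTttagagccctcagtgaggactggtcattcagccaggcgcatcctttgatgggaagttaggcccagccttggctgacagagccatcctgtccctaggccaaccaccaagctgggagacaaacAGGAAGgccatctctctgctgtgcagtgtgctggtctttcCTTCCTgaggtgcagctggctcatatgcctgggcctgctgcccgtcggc
Tie1: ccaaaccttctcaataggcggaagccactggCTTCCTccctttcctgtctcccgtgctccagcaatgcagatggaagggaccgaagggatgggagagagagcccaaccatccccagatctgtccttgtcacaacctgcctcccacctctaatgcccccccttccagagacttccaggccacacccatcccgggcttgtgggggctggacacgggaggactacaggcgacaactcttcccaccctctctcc
Gsn: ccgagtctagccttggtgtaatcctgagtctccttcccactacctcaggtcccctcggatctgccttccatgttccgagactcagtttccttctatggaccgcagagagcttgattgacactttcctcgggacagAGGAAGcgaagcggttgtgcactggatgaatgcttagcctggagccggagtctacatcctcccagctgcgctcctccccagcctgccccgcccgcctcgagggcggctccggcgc
Pdgfra: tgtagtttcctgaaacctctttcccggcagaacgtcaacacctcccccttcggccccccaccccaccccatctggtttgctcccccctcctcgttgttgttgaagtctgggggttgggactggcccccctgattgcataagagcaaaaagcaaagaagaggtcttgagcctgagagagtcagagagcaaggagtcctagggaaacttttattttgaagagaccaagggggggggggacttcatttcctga
Flt1 holds 2 matches, Egfl7 3, Tie1 1, Gsn 1 and Pdgfra none. Flt1 stood at 1093, 1169 and 1338 CPM in endothelial cells and 13.04, 17.3 and 32.2 CPM in FAPs (log2 −5.84 ± 0.49, adjusted p = 5.8e-07). Egfl7 stood at 339, 387 and 399 CPM against 6.49, 5.69 and 10.7 CPM (log2 −5.61 ± 0.28, adjusted p = 5.1e-10) and Tie1 at 902, 1009 and 834 CPM against 14.7, 11.6 and 29.03 CPM (log2 −5.63 ± 0.56, adjusted p = 4.0e-06).

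The motif is present on either strand in 29.2% of the 27025 promoters listed, and of the 11966 tested genes with an entry 28.3% do. It was present at 30.5% of genes called higher in endothelial cells, at 25.9% of those called higher in FAPs and at 28.4% of genes not called. Among called genes with a log2 difference of at least 3, 192 of 520 endothelial promoters (36.9%) and 101 of 355 FAP promoters (28.5%) held it. The ETS letters were 1 of 8 motifs counted on both strands, and at endothelial genes of that size all 8 were more frequent than at genes tested. The shares were 9.04% against 6.19% for AGATAA, letters of GATA factor sites, 14.8% against 10.3% for TTGGCA (NFI), 15.4% against 10.6% for CATCTG (E-box) and 7.5% against 6.3% for ACAATG (SOX). They were 17.5% against 15.6% for CCCNNGGG (EBF), 6.54% against 4.6% for TGANTCA (AP-1) and 9.23% against 7.05% for TATAAA, letters of the core promoter box. At FAP genes of that size 7 of the 8, all but AGATAA, were also more frequent than at genes tested, with CATCTG at 16.9%. Of the core endothelial genes 13 had an entry and 8 held the ETS letters, and of the FAP identity genes 9 had an entry and 3 held it. A match is a stretch of letters and was not tested for binding.

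Matrix genes were mostly higher in FAPs. Of 11 fibrillar collagen genes 7 were called higher in FAPs, with a list median of 2.58. Col3a1, the chain of type III collagen, stood at 6526, 11621 and 9694 CPM in FAPs and 1256, 704 and 315 CPM in endothelial cells (log2 3.61 ± 0.38, adjusted p = 3.4e-06). Col1a1 and Col1a2, the chains of type I collagen, differed by 2.58 and 2.72, and Col5a1, Col5a2 and Col5a3 by 3.64, 3.21 and 3.68. Only Col11a2 of this list was called in the other direction (log2 −2.68 ± 0.61, adjusted p = 0.0027), at levels under 21 CPM. Of 11 collagen VI and fibril-associated genes 8 were higher in FAPs, with the abundant chains Col6a1 (3.72), Col6a2 (3.76) and Col6a3 (4.0) close to one another. The 2 exceptions were Col20a1 (log2 −2.86 ± 0.48, adjusted p = 2.3e-04) and Col22a1, which lost its call without CD31WT replicate 2 (adjusted p = 0.080) or PDGWT replicate 2 (0.053).

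Basement membrane genes were also mainly higher in FAPs, though several were abundant in both populations. Of 11 basement membrane collagen genes 9 were called higher in FAPs and none in endothelial cells. The main chain genes Col4a1 and Col4a2, which lie head to head, stood at 3099.7, 3698 and 2925 and 1182, 1326 and 1085 CPM in FAPs. In endothelial cells they stood at 1309, 1412 and 1232 and 767, 849 and 752 CPM, so that the differences were small (1.30 and 0.60). Of the other members, Col4a5, Col4a3 and Col15a1 differed by 3.49, 2.57 and 3.45, and Col8a1 and Col8a2 by 1.28 and 1.19, where Col8a2 lost its call without CD31WT replicate 3 (adjusted p = 0.059). Laminin chains divided by population: the muscle chain Lama2, mutated in merosin-deficient dystrophy, stood at 1017, 827 and 665 CPM in FAPs and 79.5, 57.1 and 65.4 CPM in endothelial cells (log2 3.63 ± 0.21, adjusted p = 2.0e-09). The vessel chain Lama5 was the opposite, at 3.09, 5.15 and 8.47 CPM against 118, 143 and 163 CPM (log2 −4.65 ± 0.64, adjusted p = 8.2e-05), and Lama3 went with it (−3.83). Lama4, the other endothelial laminin alpha chain, was higher in FAPs (log2 1.33 ± 0.17, adjusted p = 1.0e-05), as were the nidogens Nid1 (2.98) and Nid2 (2.75) and the heparan sulphate proteoglycan Hspg2 (2.14). In all, 9 of 14 laminin and basement membrane linker genes were higher in FAPs and 3 in endothelial cells, of which Agrn lost its call without PDGWT replicate 2 (adjusted p = 0.058).

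Elastic fibre genes were almost one-sided, with 19 of 22 called higher in FAPs and none in endothelial cells (median 2.54). The fibrillin gene Fbn1 stood at 778, 866 and 734 CPM against 91.7, 86.01 and 48.9 CPM (log2 3.39 ± 0.20, adjusted p = 2.6e-09). The microfibril genes Mfap5 (3.63) and Mfap2 (3.04), the fibulin-family gene Efemp1 (3.62) and the crosslinking enzyme gene Loxl1 (3.73) showed the same direction. Elastin itself, Eln, differed less (log2 1.43 ± 0.26, adjusted p = 5.3e-04). Of 12 small leucine-rich proteoglycan genes 9 were higher in FAPs, among them Lum at 3538, 4384 and 3469 CPM against 307, 209 and 167 CPM (log2 4.06 ± 0.22, adjusted p = 1.3e-09), Podn (4.06) and Ogn (3.43). Fmod, Kera and Chad were called in the other direction. Fmod, which encodes fibromodulin, stood at 713, 749 and 710.3 CPM in endothelial libraries and 71.1, 90.4 and 87.5 CPM in FAP libraries (log2 −3.13 ± 0.28, adjusted p = 2.9e-07), Kera differed by −3.06 and Chad by −3.96. Kera is also on the list of tendon cell markers. Of its 7 genes 5 were called higher in the endothelial libraries, among them Tnmd (−2.02) and Comp (−1.25), and 1, Thbs4 (0.91), was called higher in FAPs. The summed level of that list overlapped between the groups, at 741, 824 and 1044 CPM in FAPs and 816, 729 and 600.2 CPM in endothelial cells, and the part of tendon cells was not tested.

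Of 19 matricellular genes 14 were higher in FAPs and none in endothelial cells (median 1.63). Smoc2, which encodes a calcium-binding modulator of growth factor signalling, reached 8124, 9465 and 6293 CPM in FAPs against 449.6, 397 and 312 CPM. The thrombospondin gene Thbs1 stood at 3775, 2220.0 and 2185 CPM against 537, 449 and 409 CPM (log2 2.55 ± 0.22, adjusted p = 1.6e-07), Thbs3 differed by 3.44 and tenascin-X, Tnxb, by 3.29. Ccn1 and Ccn2 lost their calls without CD31WT replicate 1 (adjusted p = 0.059 and 0.058). Postn lost its call without CD31WT replicate 1, CD31WT replicate 3 or PDGWT replicate 1 (0.065, 0.069 and 0.066). Matrix proteases followed the same side, with 13 of 24 protease and inhibitor genes higher in FAPs and 5 higher in endothelial cells. The gelatinase gene Mmp2 stood at 3006, 3261 and 2493 CPM against 289, 277 and 211 CPM (log2 3.49 ± 0.15, adjusted p = 1.6e-10), with its activator Mmp14 at 2.89 and the inhibitor Timp2 at 2.47. Timp4, another inhibitor of the same family, stood at 783, 839.7 and 865 CPM in endothelial cells and 9.71, 9.75 and 19.03 CPM in FAPs (log2 −6.01 ± 0.47, adjusted p = 2.2e-07). Mmp15 (−4.68), Adamts4 (−0.90) and Adamts9 (−1.70) were also higher in endothelial cells.

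Integrins, the receptors for these proteins, split without one leading side, with 6 of 19 higher in FAPs and 5 in endothelial cells. Itga11, a collagen receptor chain, stood at 349.7, 346 and 283 CPM in FAPs and 32.2, 23.6 and 16.8 CPM in endothelial cells (log2 3.75 ± 0.35, adjusted p = 6.2e-07). The laminin receptor chains Itga6 (−4.90), Itga3 (−4.71) and Itgb4 (−3.25) and the collagen receptor chain Itga1 (−2.31) were higher in endothelial cells. Itgb1, the beta chain that most of them share, stood at 807, 765 and 623 CPM against 711, 823 and 629 CPM and did not pass the test (log2 0.02 ± 0.15, adjusted p = 0.94).

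A list of capillary fatty acid handling, which also holds genes such as the water channel Aqp1 and Timp4, lay mostly with endothelial cells. Of its 17 genes 14 were called higher there (median −4.64) and 1 was called higher in FAPs (log2 1.16). The FAP call was not kept in every fit without 1 library. Fabp4, a fatty acid carrier known also from fat cells, stood at 4975, 4203 and 4168 CPM in endothelial cells and 80.7, 92.2 and 201 CPM in FAPs (log2 −5.16 ± 0.31, adjusted p = 3.5e-09). The fatty acid transporter Cd36 stood at 2058, 1986 and 2437 CPM against 43.6, 38.7 and 71.4 CPM (log2 −5.40 ± 0.38, adjusted p = 3.6e-08). Gpihbp1, which carries lipoprotein lipase across capillaries, stood at 637, 692 and 1026 CPM against 8.90, 6.36 and 12.9 CPM (log2 −6.38 ± 0.36, adjusted p = 2.1e-09). The lipase gene itself, Lpl, stood at 1592, 1416 and 1289 CPM in FAPs and 1292, 1289 and 1841 CPM in endothelial cells and did not pass the test (log2 −0.04 ± 0.19, adjusted p = 0.90). The transcription factors tied to this programme were divided, with Pparg (−4.07) and Tcf15 (−3.15) higher in endothelial cells and Meox2 not called (log2 −0.37 ± 0.20, adjusted p = 0.19).

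Markers of arterial, venous and lymphatic vessels were mostly higher in the CD31+ libraries. Of 16 arterial genes 14 were called higher in endothelial cells (median −4.25), among them the transcription factor Sox17 at 387, 473 and 466 CPM against 3.59, 3.99 and 14.6 CPM (log2 −5.89 ± 0.69, adjusted p = 2.8e-05), the kinase Bmx (−6.99) and the gap junction genes Gja4 (−4.90) and Gja5 (−4.29). Fbln5, an elastic fibre gene on the same list, was higher in FAPs (log2 1.09 ± 0.19, adjusted p = 2.3e-04). Of 11 venous genes 9 were higher in endothelial cells (median −2.23), with the leukocyte adhesion gene Selp at 1698, 2381 and 1415 CPM against 51.7, 35.5 and 138 CPM (log2 −4.61 ± 0.62, adjusted p = 8.4e-05) and the chemokine-binding receptor Ackr1 at −4.02. Of 8 lymphatic genes 7 were higher there (median −5.31), among them the lymphatic master regulator Prox1 at 51, 51.3 and 22.2 CPM against 7.11, 3.59 and 2.58 CPM (log2 −3.23 ± 0.56, adjusted p = 5.1e-04) and the hyaluronan receptor Lyve1 (−5.37). Lyve1 and Prox1 were lowest in CD31WT replicate 3. Podoplanin, Pdpn, a lymphatic marker that fibroblasts also make, was higher in FAPs, at 112, 75.3 and 106 CPM against 16.2, 18.9 and 23.6 CPM (log2 2.32 ± 0.29, adjusted p = 1.2e-05).

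Notch pathway genes were mainly endothelial, with 13 of 17 called higher there and 3 higher in FAPs (median −3.30). The ligand Dll4 stood at 215, 321 and 277 CPM in endothelial cells and 9.95, 3.99 and 5.55 CPM in FAPs (log2 −5.38 ± 0.75, adjusted p = 1.3e-04). Dll1 (−4.34), Jag2 (−4.72), the receptors Notch1 (−3.30) and Notch4 (−5.31), and the targets Hey1 (−3.38) and Nrarp (−4.89) shared the direction. Notch2, in contrast, stood at 88.9, 64.1 and 74.9 CPM in FAPs and 40.3, 9.62 and 9.81 CPM in endothelial cells (log2 1.93 ± 0.43, adjusted p = 0.0032). Notch3 was higher in the endothelial libraries (−3.26) and is also a pericyte marker. The part of pericytes in its difference was not tested. Junction genes followed, with 11 of 21 higher in endothelial cells. Cldn5, the endothelial claudin, stood at 236, 260.0 and 331 CPM against 4.39, 3.59 and 10.2 CPM (log2 −5.49 ± 0.37, adjusted p = 1.8e-08), and F11r (−4.79), Jam2 (−2.34), Tjp1 (−2.11) and Cdh13 (−3.65) were higher there. Ocln, the tight junction protein occludin, stood at 2.59, 2.41 and 3.19 CPM in endothelial cells and had no count in FAPs, at least 14.8-fold higher against a floor of 3 counts per library. The mesenchymal cadherin Cdh11 was higher in FAPs (log2 2.03 ± 0.45, adjusted p = 0.0027).

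Transcription factor genes that were called lay, with few exceptions, on the side their list names. Of 24 endothelial transcription factor genes 20 were called higher in endothelial cells and none in FAPs (median −2.92). Sox18 stood at 66.04, 98.9 and 99.2 CPM against 0.556, 1.35 and 0.990 CPM (log2 −6.51 ± 0.38, adjusted p = 2.1e-09), Erg at 37.9, 28.7 and 33.04 CPM against 1.17, 1.02 and 1.65 CPM (log2 −4.68 ± 0.43, adjusted p = 3.3e-07) and Hhex at 31.3, 38.9 and 45.9 CPM against 0.185, 0.135 and 1.26 CPM (log2 −6.11 ± 0.53, adjusted p = 1.8e-07). The ETS genes differed by different amounts, with Fli1 at −4.35, Elk3 at −2.69 and Ets1 at −2.17. Of 42 connective tissue transcription factor genes 27 were called higher in FAPs and 2 in endothelial cells (median 1.65). Osr1, a marker of FAPs and their embryonic precursors, stood at 57.2, 59.99 and 57.3 CPM against 1.66, 4.70 and 3.07 CPM (log2 4.21 ± 0.31, adjusted p = 2.4e-08). Nfix stood at 379, 389 and 325 CPM against 30.04, 38.7 and 43.4 CPM (log2 3.29 ± 0.17, adjusted p = 7.3e-10), Sox9, better known from cartilage, at 183, 162 and 127 CPM against 20.5, 17.9 and 18.2 CPM (log2 3.06 ± 0.19, adjusted p = 3.0e-09), and Prrx2, Twist1, Tbx15 and Ebf2 differed by 3.55, 3.35, 3.17 and 3.05. Of the 2 genes called the other way, Scx lost its call without CD31WT replicate 2 (adjusted p = 0.062), and Snai2 without CD31WT replicate 1, PDGWT replicate 2 or PDGWT replicate 3 (0.071, 0.055 and 0.082).

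Hox genes lay on both sides and were weakly expressed. Of 17 tested Hox genes 7 were called higher in FAPs, 6 were called higher in endothelial cells and 4 were not called. Those higher in FAPs were Hoxa10 and 6 genes of the Hoxc cluster, with Hoxc10 at 11.3, 10.97 and 13.4 CPM against 3.01, 1.23 and 3.61 CPM (log2 2.18 ± 0.47, adjusted p = 0.0017) and Hoxc8 at 3.40, 2.64 and 2.47 CPM against 0.156, 0.392 and 0.118 CPM (log2 3.63 ± 0.84, adjusted p = 0.0031). Hoxc9, one of the 6, lost its call without CD31WT replicate 2, CD31WT replicate 3 or PDGWT replicate 2 (adjusted p = 0.086, 0.083 and 0.071). Those higher in endothelial cells were Hoxa7 (−1.60), Hoxb7 (−3.43), Hoxb9 (−4.50), Hoxd8 (−1.24), Hoxd9 (−1.87) and Hoxd4. Hoxb7 stood at 10.5, 11.98 and 16.3 CPM in endothelial cells against 0.618, 0.948 and 1.98 CPM in FAPs. Neighbouring Hox genes overlap and share transcripts, so the split of counts among them is uncertain.

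Secreted signals known from FAPs were higher there for 10 of 14 genes and called higher in endothelial cells for none (median 2.97). Igf1, a growth factor for muscle fibres, stood at 246, 369.9 and 289.8 CPM in FAPs and 47, 23 and 15.7 CPM in endothelial cells (log2 3.40 ± 0.37, adjusted p = 3.9e-06). Fst, which encodes follistatin, stood at 345, 338 and 286 CPM against 12.6, 15.8 and 16.1 CPM (log2 4.45 ± 0.36, adjusted p = 1.4e-07), Il33 at 277, 283 and 289 CPM against 44.5, 38 and 29.3 CPM (log2 2.92 ± 0.30, adjusted p = 1.6e-06) and Gdf10 differed by 3.02. Il6 was high in both populations, at 802, 722 and 666 CPM and 609.8, 507 and 477 CPM, and did not pass the test (log2 0.46 ± 0.33, adjusted p = 0.33).

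Chemokine genes lay more often with FAPs, with 9 of 22 chemokine and receptor genes higher there and 4 higher in endothelial cells. Cxcl14 stood at 1932, 2395 and 2185 CPM in FAPs and 138, 77.95 and 96.2 CPM in endothelial cells (log2 4.38 ± 0.22, adjusted p = 6.1e-10). Ccl11, the eosinophil attractant eotaxin, stood at 1779, 1881 and 1388 CPM against 139, 129 and 118 CPM (log2 3.71 ± 0.20, adjusted p = 9.0e-10), and Cxcl1, Ccl2 and Ccl7 differed by 2.90, 3.73 and 3.88. Cx3cl1 (−1.21) and Cxcl9 (−1.91) were higher in endothelial cells. Cxcl12 was abundant in both, at 594, 621 and 643 CPM in FAPs and 531, 565 and 428 CPM in endothelial cells (log2 0.29 ± 0.15, adjusted p = 0.17). Complement genes also lay with FAPs, with 10 of 16 higher there. C3, the central component, stood at 3336, 3808 and 5693 CPM against 718, 243 and 199.8 CPM (log2 3.47 ± 0.45, adjusted p = 4.4e-05), and the first-step proteases C1s1 (3.34) and C1ra (3.39) and their inhibitor Serping1 (3.16) shared the direction. C3 was highest in the endothelial library that was also highest in macrophage genes, replicate 1. Cd59a, an inhibitor of the lytic complex, was higher in endothelial cells (log2 −2.54 ± 0.26, adjusted p = 1.3e-06).

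Wnt pathway genes were higher in FAPs for 18 of 32 and in endothelial cells for 6. Wnt11 stood at 184, 202 and 145 CPM in FAPs and 9.23, 21.7 and 21.7 CPM in endothelial cells (log2 3.34 ± 0.28, adjusted p = 1.1e-07), and Wnt5a at 24.7, 42.3 and 32.1 CPM against 6.12, 1.34 and 0.532 CPM (log2 3.61 ± 0.61, adjusted p = 2.9e-04). The secreted inhibitors Sfrp4 (3.46), Sfrp1 (3.14), Dkk2 (3.37) and Dkk3 (3.26) were higher in FAPs and the inhibitor Wif1 in endothelial cells (log2 −3.90 ± 0.74, adjusted p = 6.2e-04). Among receptors, Fzd6 was higher in endothelial cells, at 20.3, 22.4 and 19.8 CPM against 1.55, 0.542 and 1.70 CPM (log2 −4.02 ± 0.48, adjusted p = 5.7e-06), with Fzd4 at −0.80, while Fzd1 (1.25) and Fzd2 (2.60) were higher in FAPs.

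Of 36 genes of the TGF-beta and BMP pathway 19 were higher in FAPs and 7 in endothelial cells. Ligands differed by gene: Bmp5 (3.30), Bmp2 (2.60), Bmp4 (1.71), Tgfb2 (2.46) and Inhba (3.91) were higher in FAPs, while Bmp6 (−3.01) and Tgfb1 (−1.41) were higher in endothelial cells. Among receptors, Tgfbr2 (1.81) and Bmpr1a (2.40) were higher in FAPs, and the endothelial receptors Acvrl1 (−1.18) and Eng (−1.53) were higher in endothelial cells. The BMP target Id1 stood at 433, 595 and 541 CPM in endothelial cells and 80.7, 54.7 and 63.3 CPM in FAPs (log2 −2.98 ± 0.20, adjusted p = 1.0e-08), and Smad6 showed the same direction (−1.84).

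Other pathway lists followed the same division. Of 10 hedgehog pathway genes 8 were higher in FAPs and none in endothelial cells, with Gli3 at 46.2, 56.9 and 36.2 CPM against 4.57, 1.40 and 1.36 CPM (log2 4.23 ± 0.44, adjusted p = 1.4e-06) and the co-receptors Gas1 (2.56) and Boc (2.45). Of 14 genes of the FGF and HGF system 6 were higher in FAPs, among them the ligand Fgf7 (log2 3.83 ± 0.40, adjusted p = 1.6e-06) and the receptor Fgfr1 (log2 1.84 ± 0.15, adjusted p = 7.3e-08), and 3 in endothelial cells, among them the receptor Fgfr3 (log2 −4.67 ± 0.58, adjusted p = 1.7e-05). Retinoid genes were higher in FAPs for 7 of 13, with the synthesis enzyme gene Aldh1a1 at 247, 222 and 173 CPM against 22.5, 26.7 and 18.7 CPM (log2 3.24 ± 0.28, adjusted p = 1.9e-07), while the retinoid carrier Rbp7 was endothelial, at 336, 329.6 and 549 CPM against 6.12, 6.57 and 7.75 CPM (log2 −5.89 ± 0.48, adjusted p = 3.0e-07). Guidance genes were mainly endothelial, with 17 of 32 higher there and 8 in FAPs, among them Sema3c (3.19) and Slit3 (3.30).

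Vasoactive genes were shared out, with 9 of 25 higher in FAPs and 10 in endothelial cells. Nos3, endothelial nitric oxide synthase, stood at 365, 560.0 and 352 CPM in endothelial cells and 12.2, 9.01 and 15.6 CPM in FAPs (log2 −5.11 ± 0.33, adjusted p = 6.8e-09), and the endothelin genes Edn1 (−3.76) and Ednrb (−5.25) had the same direction. Prostaglandin synthesis was divided by isoform, with Ptgs1 higher in endothelial cells (log2 −2.93 ± 0.23, adjusted p = 6.1e-08) and Ptgs2 higher in FAPs, at 1493, 1176 and 768 CPM against 133, 58.6 and 42.7 CPM (log2 3.87 ± 0.36, adjusted p = 7.8e-07), with Ptges (4.12). The initiator of clotting F3, or tissue factor, was a FAP gene, at 879, 834 and 605 CPM against 57.9, 45.5 and 30.3 CPM (log2 4.12 ± 0.24, adjusted p = 2.5e-09), while the anticoagulant receptor Thbd was higher in endothelial cells (log2 −0.94 ± 0.16, adjusted p = 1.7e-04).

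**Figure D4:**
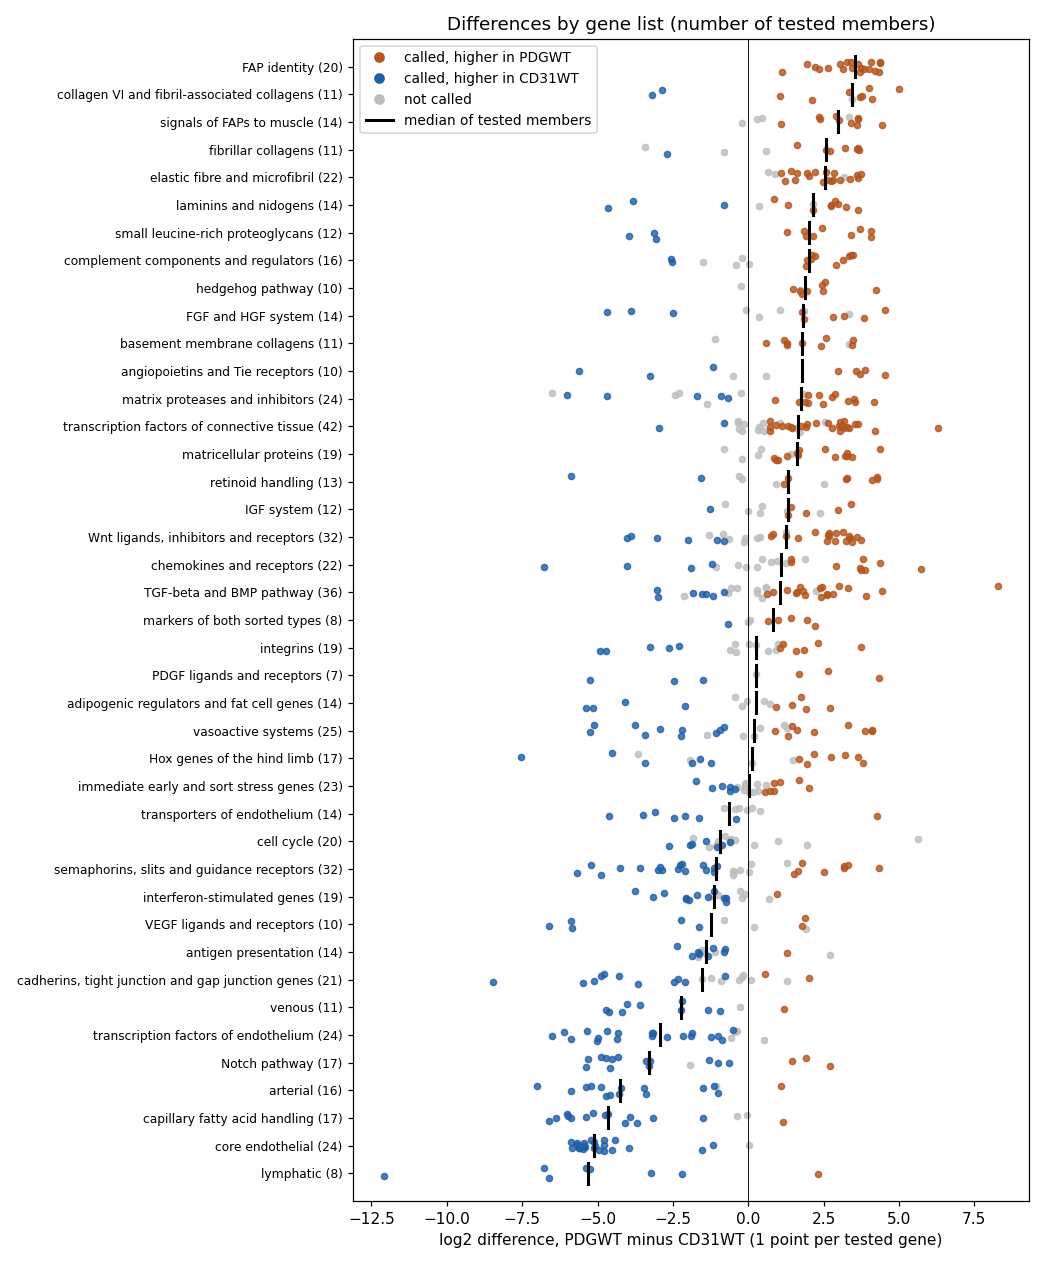
Log2 difference (FAP minus endothelial) of each tested gene, one row per gene list, with the list median marked and genes coloured by call. Matrix lists lie mostly right of 0 and vessel, Notch and endothelial transcription factor lists mostly left of it.

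Ligand and receptor genes were set side by side for 30 known pairs. Pdgfrb and Cxcl12 each stand in more than 1 of them. Over all genes tested 16.7% were called higher in FAPs and 14.5% higher in endothelial cells. In 15 pairs both genes were called. In 5 the ligand was higher in FAPs and the receptor in endothelial cells, in 5 the ligand was higher in endothelial cells and the receptor in FAPs, in 4 both were endothelial and in 1 both were higher in FAPs. The FAP ligand and endothelial receptor pairs were Angpt1 and Tek, Vegfa and Kdr, Pgf and Flt1, Sema3c and Plxnd1, and Svep1 and Tie1. Angpt1, the activating ligand of Tek, stood at 43.9, 50.8 and 45.3 CPM in FAPs and 3.37, 2.24 and 0.355 CPM in endothelial cells (log2 4.53 ± 0.49, adjusted p = 2.5e-06). Vegfa, which drives capillary growth, stood at 466, 390.4 and 252 CPM against 70.8, 134 and 117 CPM (log2 1.79 ± 0.25, adjusted p = 2.9e-05), and its receptor Kdr at 10.4, 5.76 and 13.6 CPM against 524, 784 and 472 CPM (log2 −5.89 ± 0.34, adjusted p = 2.3e-09). Angpt2, the context-dependent antagonist of Angpt1, was endothelial (log2 −3.24 ± 0.47, adjusted p = 6.4e-05).

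In the opposite direction, Pdgfb, the ligand that recruits mural cells, stood at 27.96, 18.9 and 33.3 CPM in endothelial cells and 0, 0.542 and 1.48 CPM in FAPs (log2 −5.26 ± 0.98, adjusted p = 7.3e-04). Its receptor Pdgfrb stood at 302, 284 and 246 CPM in FAPs and 74.2, 109.7 and 73.6 CPM in endothelial libraries (log2 1.69 ± 0.17, adjusted p = 9.1e-07), which also held the pericyte genes given above. Pdgfa (−2.47) with Pdgfra, Pdgfd (−1.50) with Pdgfrb, Jag1 (−0.99) with Notch2, and Igf2 (−1.27) with its clearance receptor Igf2r (1.32) were the other pairs of this kind. Within endothelial cells lay Efnb2 (−1.51) and Ephb4 (−2.20), Dll4 and Notch1, Bmp6 and Acvrl1, and the stem cell factor gene Kitl, at 257, 290.3 and 278 CPM against 45.1, 52.3 and 43.99 CPM (log2 −2.55 ± 0.14, adjusted p = 9.1e-10), with its receptor Kit (−4.0). The pair within FAPs was Gas6 (0.45) and its receptor Axl (3.32), and Gas6 lost its call without CD31WT replicate 3 (adjusted p = 0.0627). Transcript levels do not show that ligand and receptor meet.

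**Figure D5:**
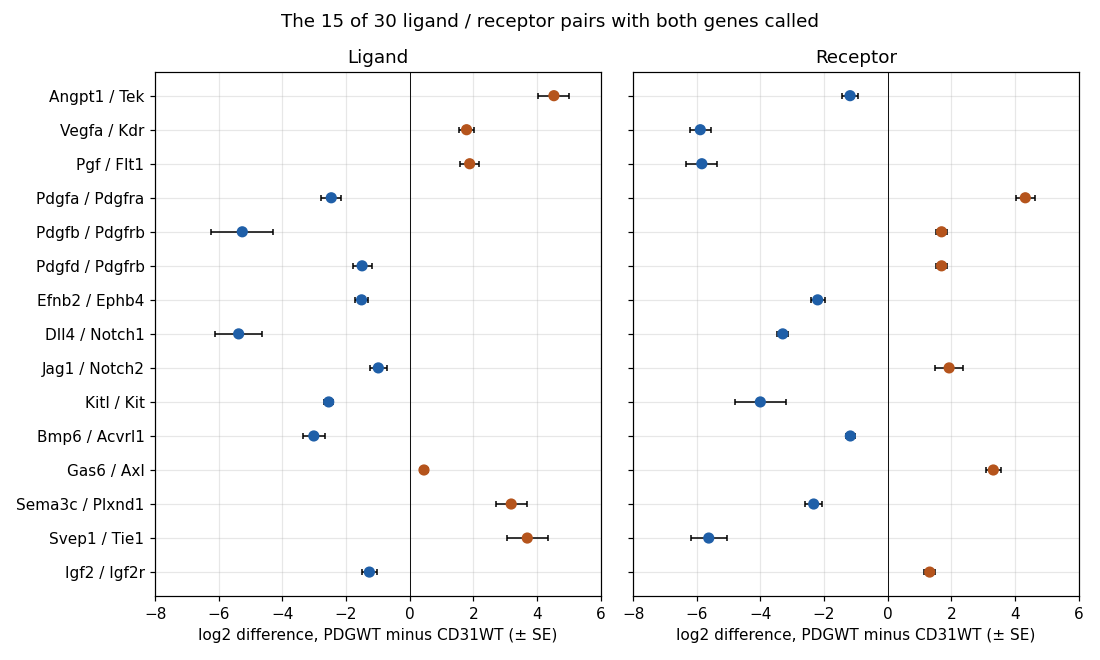
Log2 difference (FAP minus endothelial) of the ligand gene in the left panel and of the receptor gene in the right panel for the 15 pairs with both genes called, with bars of ± 1 standard error. In 5 pairs the ligand lies right of 0 and the receptor left of it, and in 5 pairs the reverse.

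Of 8 genes known as markers of both sorted types 5 were called higher in FAPs, 1 was called higher in endothelial cells and 2 were not called. Of these 2, Ly6a, which encodes Sca-1 and is often used to sort FAPs, stood at 899, 1104 and 1426 CPM in FAPs and 1355, 792 and 1180.3 CPM in endothelial cells (log2 0.04 ± 0.21, adjusted p = 0.91), with overlapping libraries. Cd34, used for both types, was higher in FAPs, at 1669, 1864 and 1334 CPM against 498, 449 and 321 CPM (log2 1.94 ± 0.18, adjusted p = 3.5e-07). A p above the threshold does not show that levels were equal.

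Genes of antigen presentation were higher in endothelial cells for 8 of 14 and in FAPs for 1. The class I gene H2-K1 stood at 1684, 1442 and 2103 CPM in endothelial cells and 574, 784 and 725 CPM in FAPs (log2 −1.33 ± 0.16, adjusted p = 8.4e-06), B2m differed by −1.18 and the peptide transporter gene Tap1 by −1.64. The H2 class I genes have similar copies, so their counts are uncertain. Interferon-stimulated genes were higher in endothelial cells for 12 of 19 and in FAPs for 1, Ifi27. The endothelial count was between 9 and 13 in fits without 1 library. The summed level of this list overlapped between the groups, at 2290, 2936 and 3464 CPM in FAPs and 5155, 3320 and 4685 CPM in endothelial cells. Isg15 stood at 261, 155 and 299.9 CPM against 16.4, 30.6 and 55.3 CPM (log2 −2.80 ± 0.45, adjusted p = 2.5e-04) and Rsad2 at 235, 166 and 265 CPM against 7.05, 8.19 and 33.8 CPM (log2 −3.76 ± 0.66, adjusted p = 7.8e-04). Among FAP libraries both were highest in replicate 3.

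Immediate early genes, which rise when tissue is digested and sorted, were high in all 6 libraries. Fos stood at 4513, 5073 and 5429 CPM in FAPs and 3892, 3842 and 4152 CPM in endothelial cells (log2 0.34 ± 0.18, adjusted p = 0.17). Of 23 genes of this kind 7 were called higher in FAPs and 6 in endothelial cells, against 16.7% and 14.5% of all genes tested. In fits without 1 library the counts were 5 to 6 and 4 to 5. Myc (log2 2.01 ± 0.15, adjusted p = 2.7e-08) and Nr4a1 (log2 1.69 ± 0.18, adjusted p = 1.9e-06) were higher in FAPs. The heat shock genes Hspa1a (log2 −1.72 ± 0.26, adjusted p = 6.4e-05) and Hspa1b (log2 −1.22 ± 0.26, adjusted p = 0.0018) were higher in endothelial cells. The mitochondrially encoded genes took 0.566%, 0.790% and 0.862% of FAP counts and 2.06%, 1.01% and 2.31% of endothelial counts, and the part of handling or RNA quality in these differences was not tested.

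The same contrast was set in libraries that these groups do not share, the 8 sorted libraries with DUX4. There 5732 of 17008 genes were called (33.7%). Of the 2836 genes higher in WT FAPs 2737 had the same sign in the DUX4 libraries and 1990 were also called. Of the 2459 genes higher in WT endothelial cells 2383 had the same sign and 1865 were also called. The share with the same sign among all genes tested was not counted. The DUX4 libraries also entered the fit that made the WT calls, so these counts are no independent check. The difference between the cell types itself differed with DUX4 for 383 genes (2.25%). Of these, 256 were toward FAPs in WT libraries, and with DUX4 210 were smaller in the same direction, 11 larger and 35 in the opposite direction. The other 127 were toward endothelial cells in WT libraries, and with DUX4 25 were smaller, 44 larger and 58 in the opposite direction. Of those with opposite directions, 7 and 8 were called both in WT and in DUX4 libraries. One of them was Pgf, the placental growth factor gene, at 129, 95.7 and 76.5 CPM in PDGWT and 21.7, 20.1 and 39.9 CPM in CD31WT, but between 4.88 and 10.1 CPM in PDGDUX and between 92.6 and 144 CPM in CD31DUX (interaction −5.72 ± 0.41, adjusted p = 5.1e-06). For Pdgfra the difference was log2 2.91 in DUX4 libraries, and the interaction was −1.41 ± 0.34, adjusted p = 0.041. For Dcn it was log2 2.36, and the interaction was −1.35 ± 0.21, adjusted p = 0.0022. With DUX4 the levels of FAP genes were higher in the endothelial libraries: the FAP identity genes summed to between 26080.4 and 31735 CPM in CD31DUX against 8378 to 10538.5 CPM in CD31WT, and to between 136485 and 156221 CPM in PDGDUX against 109555 to 154281 CPM in PDGWT. Gsn and Dcn made up most of these sums. The interaction was called for 11 of the 20 FAP identity genes and 1 of 24 core endothelial genes, against 2.25% of all genes tested. The core endothelial genes summed to between 8926 and 10909 CPM in CD31DUX and 11707 to 13562 CPM in CD31WT. How far FAPs in the CD31DUX libraries contribute was not tested. The count of 383 was 238 without PDGWT replicate 1, 250 without PDGWT replicate 2 and 25 against a minimum fold change of 2.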

How the data were processed

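The 6 WT sorted libraries and the 8 sorted libraries with DUX4 were used; the whole-muscle libraries were not analysed here. The authors deposited 1 Salmon table per library, with estimated counts per gene. The submitters' processing notes name CASAVA 1.8, Salmon 0.6.0 and mm10, without their roles or any filter. Depth ran from 10998837 to 20666816 counts per library.

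Expected counts were rounded to whole numbers and tested with edgeR 4.0.16 (R 4.3.3): TMM scaling, filterByExpr with a minimum of 10 counts, robust quasi-likelihood fit with 1 mean per sorted group over 14 libraries and Benjamini-Hochberg adjustment. Symbols and exon lengths came from GENCODE vM21. Named genes were the 15 largest differences in each direction among called genes of at least 50 CPM, the 5 highest per kilobase with a log2 difference of at least 5, and members of gene lists and of 30 pairs. Sex-linked, immunoglobulin and haemoglobin genes and Gm and Rik names were left out of the first rule. The population members and lists were chosen with earlier results of these data known. The test was also run on simulated counts with far fewer changed genes than were called here. That run says little about this contrast, and its outcome is not used. Alternatives were limma 3.58.1 voom, DESeq2 1.42.0, RLE scaling, other low-count filters, a minimum fold change of 2, the 6 WT libraries alone and leaving out each library. Lists are described by counts, with no set test. Motif letters were counted in 250-base upstream windows.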

Additional observations from a re-analysis of the deposited data

Results flagged for a closer look

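A test of the interaction found that the difference between FAPs and endothelial cells itself differed between WT and DUX4 libraries for 383 genes (edgeR, adjusted p under 0.05). Among the 4 marker genes first described and the 30 genes with the largest differences among well expressed genes, 12 were of this kind, and each differed less between the cell types in DUX4 libraries. The change in the log2 difference (DUX4 minus WT) was −1.41 for the sorted receptor gene Pdgfra and −1.35 for Dcn. It was −3.45 for Khdrbs3, −1.89 for Col6a6, −2.17 for Has2, −1.68 for Myoc, −1.82 for Ifi205 and −1.78 for Fst. It was −1.67 for Cxcl14, −1.97 for Smoc2, −1.36 for Clec3b and −1.59 for Mme. All 12 were higher in FAPs, and none of the 15 endothelial genes was among them. The 30 genes were picked by the size of their WT difference, which the interaction subtracts. That choice favours smaller differences in the DUX4 libraries. Mean levels of Pdgfra were 921 CPM in PDGWT and 1134 CPM in PDGDUX but 45.96 CPM in CD31WT and 151 CPM in CD31DUX. Those of Dcn were 26011 and 26189 CPM in the FAP groups and 1988 and 5114 CPM in the endothelial groups, and those of Smoc2 7961 and 9201 CPM and 386 and 1745 CPM. The summed FAP identity genes, given in the report, were also higher in CD31DUX than in CD31WT. That list includes Pdgfra, Dcn, Smoc2 and Clec3b, and Gsn and Dcn make up most of its sum. The sum is therefore not separate from the genes named here, and its part in these interactions was not tested.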

How the results depend on the processing

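No paired analysis was possible because the replicate numbers follow the order of the sample records and pair no libraries. Against a minimum fold change of 2, 2234 genes were called between WT FAPs and endothelial cells, 1822 between the DUX4 libraries and 25 in the interaction. DESeq2 called 824 genes in the interaction. A stricter low-count filter left 197 genes with a log2 difference of at least 5. Leaving out 1 library gave 4364 to 4941 genes called, 330 to 486 with a log2 difference of at least 5, 5592 to 5900 in the DUX4 libraries, 238 to 541 in the interaction and 487 to 520 of 749 tested list genes, against 524 with all libraries. With all libraries but other tools, filters or scaling, the WT count lay between 4788 (no low-count filter) and 5963 (DESeq2), against 5295, and with only the 6 WT libraries it was 4562. Of the 247 genes named with a call, none changed direction under the 14 alternatives, 208 kept the call in every one that tested them and 39 lost it in at least 1, in each case also against the minimum fold change of 2. Of the 8 named genes that did not pass the test, 4 changed sign. Clec14a (0.04 with all libraries) was at −0.0456 under DESeq2, −0.0459 under RLE scaling, between −0.23 and 0.25 when 1 library was left out and 0.48 without CD31WT replicate 1 and PDGWT replicate 3 together. Ly6a (0.04) was at −0.0369 under both DESeq2 and RLE scaling and between −0.17 and 0.20 without 1 library. Itgb1 (0.02) was at −0.0612 under both, −0.0036 with no low-count filter, −0.0109 with the stricter filter and between −0.11 and 0.13 without 1 library. Lpl (−0.04) was between −0.16 and 0.11 without 1 library. The causes of these shifts were not tested. Genes near 3 counts per library limit the precision of the largest folds, and calls at low levels rest on few counts.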
